A study of Mus musculus with 10 samples.

Results

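Zinc finger protein (Zfp) gene regions were taken from the accessible chromatin of mouse sperm. Intervals from the peak lists of 10 ATAC-seq libraries were joined wherever they shared at least 1 bp. Chromosomes 1 to 19 then held 113093 regions. A region was counted as a Zfp gene region where it overlapped a protein-coding gene of GENCODE M21 named Zfp plus a number, extended by 3 kb on each side. This rule took 745 of the 113093 regions and used the annotation alone. ATAC-seq marks DNA that the Tn5 transposase can reach, and a peak is an interval with more cuts than its surroundings.

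The study compared mature sperm from the cauda epididymis of F0 males, wild type C57BL/6JRccHsd mice fed for 6 months either a standard chow (F0 CD, 6 libraries) or a Western diet, with most of its energy from fat and carbohydrate (F0 WD, 4 libraries). Each library came from 1 animal. Strain, genotype, sex, tissue and the length of feeding were the same in both groups. The numbers of animals follow the sample titles, since a sentence of the protocol gives the same 2 numbers to the opposite diets.

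Most Zfp genes encode proteins with C2H2 zinc fingers, small folds around a zinc ion that read DNA. The symbol also covers some others, such as Zfp36, which acts on mRNA. Many of them carry a KRAB domain, which brings in Trim28 and, through it, the methyltransferase Setdb1 to silence transposable elements and to keep imprints. Many lie in clusters that grew by tandem duplication, so neighbouring genes resemble each other in sequence. In sperm, most histones have been replaced by protamines, and accessible sites are read against that compact background.

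Of the 745 regions, 204 were promoter regions, which lay within 3 kb of an annotated transcript start, and 87 of those lay within 1 kb. A further 485 lay in gene bodies outside the promoter window and 56 in the 3 kb past a gene's end. By annotation, 393 of the body regions lay in introns, 63 touched a coding exon and 29 a non-coding exon. The promoter regions were made up of 102 in introns, 34 on coding exons, 21 on non-coding exons and 47 outside the gene. The annotation held 383 autosomal Zfp genes. At least 1 region was found at 240 of them and no region at 143. The genes without a region were shorter, with a median length of 14.5 kb against 20.3 kb. A promoter region within 3 kb was found at 141 genes in any library, and within 1 kb at 70.

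Each list held 13224 to 29364 autosomal peaks, and the weakest called summit in a list held 9 to 13 reads. A missing peak means that a site did not pass the caller's threshold in that library, not that it was closed, and weaker signals were not detectable at this depth. Of the markers of other cells, 1 of 7 epididymal genes, 1 of 6 immune genes and 1 of 4 spermatogonial genes had a peak within 1 kb of a start in any library, each in a single library. On average, 3.67% of protein-coding genes outside the Zfp set had such a peak in a library. Lists this short could therefore not show whether other cells were present or absent. Of 11 spermatid and sperm genes, 0 had a peak within 1 kb of a start and 3 had one within 3 kb, Prm1 among them in 1 library, so the tissue label could hardly be checked on promoters of sperm genes.

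The sequences at the summits are shown in sets chosen for a shared feature. The first feature was runs of the dinucleotides CA or TG. Shown are 121 bases of mm10 (GRCm38) around the strongest summit of 3 promoter and 2 body regions found in 6 or more libraries, on the strand of the gene, with runs of 4 or more CA or TG units in capitals.
Zfp64 promoter (chr2:168909378-168909498, minus strand): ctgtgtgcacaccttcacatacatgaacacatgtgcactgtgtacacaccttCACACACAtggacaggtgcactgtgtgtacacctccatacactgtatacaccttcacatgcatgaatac
Zfp7 promoter (chr15:76877907-76878027, plus strand): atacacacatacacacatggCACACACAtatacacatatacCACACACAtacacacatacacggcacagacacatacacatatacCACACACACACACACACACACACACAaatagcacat
Zfp78 promoter (chr7:6365818-6365938, plus strand): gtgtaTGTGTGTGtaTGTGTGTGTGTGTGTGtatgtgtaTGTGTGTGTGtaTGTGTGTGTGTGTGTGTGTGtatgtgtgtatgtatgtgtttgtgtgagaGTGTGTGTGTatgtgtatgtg
Zfp827 body (chr8:79035492-79035612, plus strand): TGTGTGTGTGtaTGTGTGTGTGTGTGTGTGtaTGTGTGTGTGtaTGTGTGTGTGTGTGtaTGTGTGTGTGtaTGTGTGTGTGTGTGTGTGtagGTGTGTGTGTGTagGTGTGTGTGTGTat
Zfp652 body (chr11:95809341-95809461, plus strand): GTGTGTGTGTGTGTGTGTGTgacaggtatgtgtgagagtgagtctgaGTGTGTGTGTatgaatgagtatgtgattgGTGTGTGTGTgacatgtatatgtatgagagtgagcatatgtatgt

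The second feature was contact with a start site. The following 151 bases around the summit are shown because these were the promoter regions nearest to a start among those found most often. Capitals mark CG dinucleotides, of which the windows of Zfp513, Zfp583 and Zfp180 held 12, 1 and 8.
Zfp513 promoter (chr5:31200354-31200504, minus strand): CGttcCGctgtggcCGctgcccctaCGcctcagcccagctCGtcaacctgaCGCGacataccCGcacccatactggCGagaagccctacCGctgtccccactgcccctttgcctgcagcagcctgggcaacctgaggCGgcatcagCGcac
Zfp583 promoter (chr7:6330420-6330570, minus strand): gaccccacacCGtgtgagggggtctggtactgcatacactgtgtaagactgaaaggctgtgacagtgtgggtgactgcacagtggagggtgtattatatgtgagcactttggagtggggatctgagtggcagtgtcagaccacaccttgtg
Zfp180 promoter (chr7:24081949-24082099, plus strand): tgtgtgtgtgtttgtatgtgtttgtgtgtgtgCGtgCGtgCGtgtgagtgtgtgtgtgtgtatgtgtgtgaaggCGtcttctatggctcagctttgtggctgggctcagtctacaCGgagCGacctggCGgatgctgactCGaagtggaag

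The third set came from a run of Zfp genes on chromosome 4 and held neither feature. The strongest summits of 3 body regions found in 7 or more libraries are shown, with the 21 bases centred on the summit in capitals.
Zfp600 body, stronger region (chr4:146173984-146174104, plus strand): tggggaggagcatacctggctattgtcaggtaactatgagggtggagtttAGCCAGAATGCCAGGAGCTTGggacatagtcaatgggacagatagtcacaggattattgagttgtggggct
Zfp600 body, weaker region (chr4:146167962-146168082, plus strand): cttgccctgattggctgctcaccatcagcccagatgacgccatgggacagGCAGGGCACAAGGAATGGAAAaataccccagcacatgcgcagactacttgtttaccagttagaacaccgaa
Zfp980 body (chr4:145680405-145680525, plus strand): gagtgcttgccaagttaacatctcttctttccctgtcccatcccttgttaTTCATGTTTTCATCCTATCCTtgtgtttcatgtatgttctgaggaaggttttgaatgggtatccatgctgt

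The chromosome 4 genes also gave near copies of one sequence at several promoters. The promoter regions of Zfp981, Zfp982 and Zfp985 had a peak in 4, 2 and 1 libraries. In the stretch the 3 regions share, capitals mark bases that differ from the Zfp981 copy, 6 in each of the others.
Zfp981 promoter (chr4:146513582-146513701, plus strand): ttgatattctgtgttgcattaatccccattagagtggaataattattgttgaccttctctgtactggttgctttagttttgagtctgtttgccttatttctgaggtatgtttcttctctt
Zfp982 promoter (chr4:147495178-147495297, plus strand): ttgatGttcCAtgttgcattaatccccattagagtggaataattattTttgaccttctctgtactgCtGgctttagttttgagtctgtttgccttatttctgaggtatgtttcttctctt
Zfp985 promoter (chr4:147556112-147556231, plus strand): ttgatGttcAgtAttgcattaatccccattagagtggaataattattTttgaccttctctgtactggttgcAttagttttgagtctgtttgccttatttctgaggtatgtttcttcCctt
Of the 50-mers in the regions of Zfp981, Zfp982 and Zfp985, 58.4%, 85.1% and 85.4% occur once in the genome. Whether a peak at one gene of this group held reads of another was not tested.

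Most Zfp gene regions were found in a single animal. Of the 745 regions, 602 had a peak in 1 library, or 80.8% against 78.3% of all autosomal regions. A further 73 were found in 2 libraries, 23 in 3 and 15 in 4. The remaining 32 regions were found in 5 or more libraries, and 3 of those in all 10. The regions of all 10 libraries were the Zfp64 promoter region and the pair of Zfp600 body regions printed above.

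Regions found more often were more often on dinucleotide runs. In the 201 bases around the strongest summit, a run of 10 or more CA or TG units was held by 12% of the Zfp gene regions found in 1 library, 28.8% of those found in 2 to 4 and 28.1% of those found in 5 or more. Over all autosomal regions, the same windows held such a run in 17.8%, 36.4% and 32.7%. Zfp gene regions on the chromosome 4 run differed from this. There, 1 of 26 regions found in 1 library and 0 of 32 found more often held such a run, against 9 of 23 among the regions elsewhere found in 5 or more libraries. Lower-case bases of the reference, which mark repeats, made up 22.9% of the window for regions of 1 library and 66.2% for those of 5 or more, and 32.2% and 84.8% over all autosomal regions.

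At promoters, the most often found region lay at Zfp64, a C2H2 transcription factor, in an intron (chr2:168909193-168909825). The edge of the joined region lay 2808 bp from the nearest start. A peak of the library itself reached within 3 kb of a Zfp64 start in 8 libraries, 5 F0 CD and 3 F0 WD. In the others, the region counts as promoter only through the joining of intervals. The reads at the region's summit were 16, 19 and 19 as the lowest, median and highest of the F0 CD libraries. In the F0 WD libraries they were 18, 22, 27 and 22. The groups overlapped, and the highest values were of F0 WD libraries. Reads at a summit, here and below, were not scaled for depth. The lowest background of a library ran from 2.11 reads per 200 bp in F0 WD replicate 2 to 4.42 in F0 CD replicate 3. The promoter region of Zfp7 (chr15:76877760-76878199), outside the gene and 1060 bp from a start, was found in 4 F0 CD libraries with 14, 16, 17 and 21 reads and in 3 F0 WD libraries with 9, 12 and 18 reads. Its window is shared with the start of Gm49527. The Zfp78 region, in an intron 2344 bp from a start, was found in 3 libraries of each diet, with 17 to 28 reads.

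Among the regions closer to a start, that of Zfp513, a gene known for its part in the retina, lay on a coding exon and touched a transcript start (chr5:31200252-31200680). It had 19, 24, 17 and 15 reads in 4 F0 CD libraries and 14 and 17 in 2 F0 WD libraries, with a GC content of 67.6%. The Zfp583 region (chr7:6330099-6331043) was 945 bp wide and covered the start. It was found in 4 F0 CD libraries with 15, 17, 15 and 20 reads and in 1 F0 WD library with 15. The region at the start of Zfp180 had 29, 21 and 15 reads in F0 CD and 18 in 1 F0 WD library. None of these 3 regions was found in every library of either diet, and their reads overlapped between diets where both had a peak.

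The other named promoter regions were found in 3 to 6 libraries. Zfp516, an activator of brown fat genes, was found in 3 libraries of each diet, in an intron 2778 bp from a start, with 17 to 23 reads. The region of Zfp597, also within 3 kb of a start of Naa60, was found in 5 libraries, 3 of them F0 CD, with 12 to 21 reads. Zfp827, Zfp981 and Zfp385b each had a peak in 4 libraries. Zfp143, an activator of transcription that also sits at chromatin loop anchors, had 25, 32 and 17 reads in 3 F0 CD libraries and no peak in F0 WD. Of the 12 named promoter regions, 5 lay within 1 kb of a start and 4 held a run of 10 or more CA or TG units. Over all Zfp genes, 9 had a promoter peak within 3 kb in 5 or more libraries, and 2 had one within 1 kb.

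Among body regions, both intron regions of Zfp600 were the most regular. The stronger one (chr4:146173389-146174486) had 24, 29.5 and 41 reads as the lowest, median and highest of the F0 CD libraries and 24, 32, 19 and 35 in the F0 WD libraries. Its median percentile among all peaks of a list was 97.3. The weaker one (chr4:146167859-146168522) had 17, 27 and 33 reads in the F0 CD libraries and 28, 9, 18 and 30 in the F0 WD libraries, with a percentile of 92.9. The diets overlapped at both. Of the 50-mers in these regions, 49.7% and 46.8% occur once in the genome, and whether the regions held reads of other copies was not tested. Zfp980, in the same run of genes, had a region in 7 libraries with 13 to 34 reads and 46.6% unique 50-mers.

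The remaining often found body regions were each found in 8 or 9 libraries. The joined Zfp992 region had a peak in 9 libraries with 18 to 37 reads and 94.6% unique 50-mers. It held 2 groups of summits, a split seen after its values were known, and the reads come from both. Summits of the upstream group were called for 4 of 6 animals on chow and 1 of 4 on the Western diet. For the downstream group, the counts were 1 of 6 and 4 of 4. The count of 9 libraries is thus that of the joined region and not of either group. Zfp366, known from dendritic cells, had 15 to 27 reads in 8 libraries, on a non-coding exon. Zfp407, linked to glucose uptake in fat cells, had 14 to 28 reads in 8 libraries. The Zfp827 body region had 14 to 30 reads in 8 libraries. Zfp652, a transcriptional repressor, was called in all 6 F0 CD libraries with 15, 18.5 and 29 reads as the lowest, median and highest, and in 2 F0 WD libraries with 17 and 14. Of the 8 named body regions, 4 lay on chromosome 4, 7 lay in introns and 3 held a run of 10 or more CA or TG units.

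**Figure D1:**
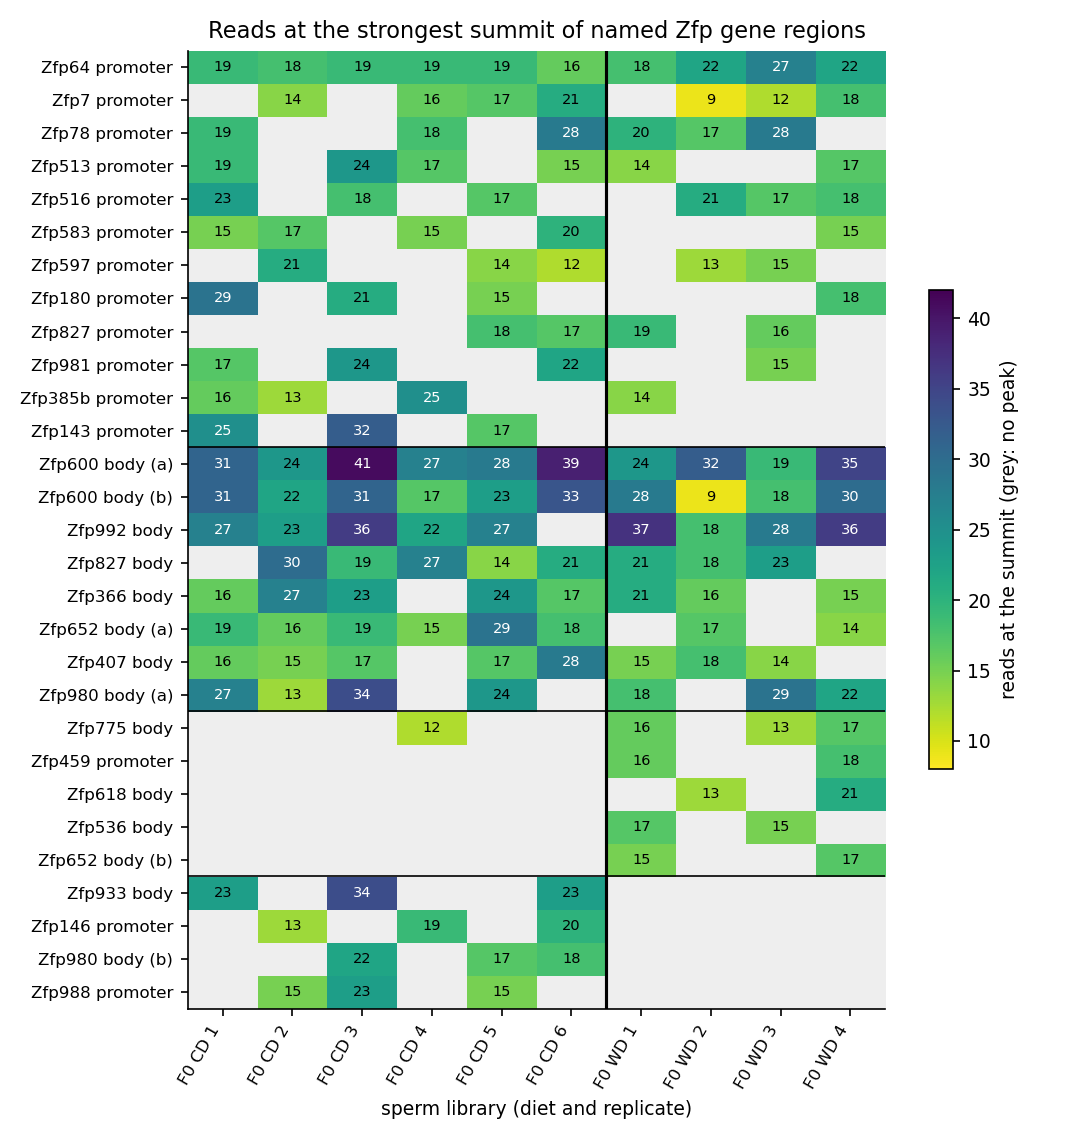
Reads at the strongest summit (colour and number) for each named Zfp gene region (rows) in each of the 10 sperm libraries (columns, F0 CD left and F0 WD right of the line), with grey where no peak was called. Lines part the promoter regions found most often, the body regions found most often, and the regions with the largest difference towards F0 WD and towards F0 CD. Zfp143 also belongs to the last set. Only Zfp64 and the pair of Zfp600 regions are filled in every column.

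Several long genes held many regions, and others of like length held few. Zfp536, a regulator of neuronal differentiation 302 kb long, held 31 regions, and Zfp385b, Zfp407 and Zfp423, of 409, 462 and 298 kb, held 30 each. Zfp423, which commits cells to the fat lineage, had a region in 7 libraries with 13 to 22 reads, and a peak somewhere over the gene in all 10. Zfp521, which opposes that fate, held 24 regions and Zfp618 held 23. The longest Zfp gene, Zfp804b with 576 kb, held 6, and Zfp697 with 371 kb held 9. Of the 50-mers over Zfp804b and Zfp697, 88.9% and 48.4% occur once in the genome. Over Zfp536, Zfp385b, Zfp407 and Zfp423 it was 95.5% to 98.7%. The part of uniqueness in these counts was not tested. A peak over the gene was found in all 10 libraries at 7 Zfp genes.

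Whether Zfp promoters were accessible as often as others was compared within each library. A peak within 1 kb of a start was found at 2.85% ± 0.883 (SD, n = 10) of Zfp genes and 3.67% ± 0.837 of other protein-coding genes. The share was lower at Zfp genes in 9 of 10 libraries, with a mean difference of -0.826 ± 0.57 percentage points, and the exact two-sided sign-flip permutation test gave p = 0.00391 (n = 10), adjusted p = 0.0117 over 6 comparisons. The size depended on the settings, with -2.04 percentage points in a 3 kb window and -0.491 with equal numbers of peaks from every list. In numbers, 7 to 19 of the 383 Zfp genes had such a peak in a library. The strength of those peaks, as the median percentile of the summit in its own list, was 41.8 ± 6.97 at Zfp promoters and 43.5 ± 1.67 at others, a mean difference of -1.72 ± 6.90 with an exact permutation p of 0.453 (n = 10).

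In narrower windows around RefSeq starts, counted over all libraries together, the share was higher at Zfp genes. In windows from 250 bases before to 50 after the start (RefSeq, GRCm38), a peak of any library overlapped 16 of 386 Zfp windows, 4.15%, against 2.57% of all 31396 windows. No test was made of this share. The 386 windows belong to 318 genes and all 31396 windows to 25748, more than the 20807 protein-coding genes of the annotation. The background thus differs from that of the 1 kb comparison. Among the 16 Zfp windows with a peak, some shared a gene, such as those of Zfp54, and most had a peak in 1 library. CpG-rich windows, with a GC content over 50% and an observed to expected CpG ratio over 0.6, made up 47.9% of Zfp windows against 33.9% of all. A peak was found at 3.24% of the CpG-rich Zfp windows and 4.98% of the others, against 1.48% and 3.12% over all genes. Of 4 motifs searched on both strands, CCGGAAGT (ETS) was in 9.84% of Zfp windows against 3.95% of all, GCGCATGC (NRF1) in 4.66% against 2.70%, AAGATGGC (YY1) in 4.92% against 2.75% and TGACGTCA (CRE) in 3.89% against 1.83%. These are matches of letters and say nothing of binding.

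Gene bodies of Zfp genes held 7.72 ± 1.93 peaks per Mb and those of other genes 8.10 ± 2.15 (SD, n = 10), outside the promoter windows. The mean log2 ratio within a library was -0.07 ± 0.22, higher at Zfp bodies in 4 of 10 libraries, and the exact permutation p was 0.346 (n = 10). This comparison depended on repeats and on one locus. Counting only peaks with under 50% of their bases repeat-masked, Zfp bodies held more peaks per Mb than others, with a mean log2 ratio of 0.30 and an exact permutation p of 0.00195 (n = 10), the smallest the design allows. Leaving out the chromosome 4 run described further on, a choice made after its values were seen, they held fewer, with a mean log2 ratio of -0.23 and an exact permutation p of 0.00781 (n = 10).

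Peaks in Zfp bodies held fewer repeat-masked bases. On average 36.7% ± 4.83 of the bases of a peak in a Zfp body were repeat-masked, against 48.3% ± 4.11 in other bodies. The difference was -11.6 ± 2.16 percentage points, lower in 10 of 10 libraries, with an exact permutation p of 0.00195 (n = 10) and an adjusted p of 0.0117 over 6 comparisons. The bodies themselves went the other way, since 31.4% of the bases of Zfp bodies and 28.2% of those of other genes were repeat-masked. The unique share of 50-mers was 85.2% in Zfp bodies and 93.5% in others, and its part in this difference was not tested.

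Within Zfp bodies, summits lay more densely in coding exons than in introns. Coding exons, which in most of these genes hold the zinc finger arrays, had 12.9 ± 4.89 summits per Mb against 7.87 ± 1.84 in introns and 6.65 ± 2.98 in non-coding exons (SD, n = 10). The F0 CD libraries had 7.81, 21.5, 17.6, 7.81, 11.7 and 5.85 summits per Mb of coding exon, and the F0 WD libraries 15.6, 11.7, 13.7 and 15.6. The diets overlapped, and the values rest on 3 to 11 summits a library. The density was higher in coding exons than in introns in 9 of 10 libraries, the exception being F0 CD replicate 6, by a ratio of 1.56 as the geometric mean, with an exact two-sided sign-flip permutation p of 0.00586 (n = 10). In other genes the ratio was 0.990, with 8.29 ± 1.89 against 8.41 ± 2.30 summits per Mb. The ratio differed between Zfp and other genes in 9 of 10 libraries, with an exact permutation p of 0.00391 (n = 10) and adjusted p = 0.00586 for both over 2 comparisons. Both tests were chosen after the values were seen.

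The coding exon summits came from many genes rather than a few. The 66 summits fell in 47 regions of 40 genes, and 35 of the regions were found in 1 library. The region with most, at Zfp978 on chromosome 4, gave 5 of the summits, and without it the ratio was 1.46 with an exact permutation p of 0.00781 (n = 10). Other body regions on coding exons were those of Zfp746 and Zfp180 in 4 libraries each, a pair at Zfp398 in 3 libraries each and Zfp13 in 3. The GC content was 64.5% at Zfp746, 51.9% at Zfp180, 62.3% at Zfp13 and 36.1% at Zfp978, beside 46.8% over all Zfp coding exons and 41.9% over the introns. Repeat-masked bases made up 15.1% of the coding exons and 33.2% of the introns. The part of base composition and repeats in the difference was not tested.

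**Figure D2:**
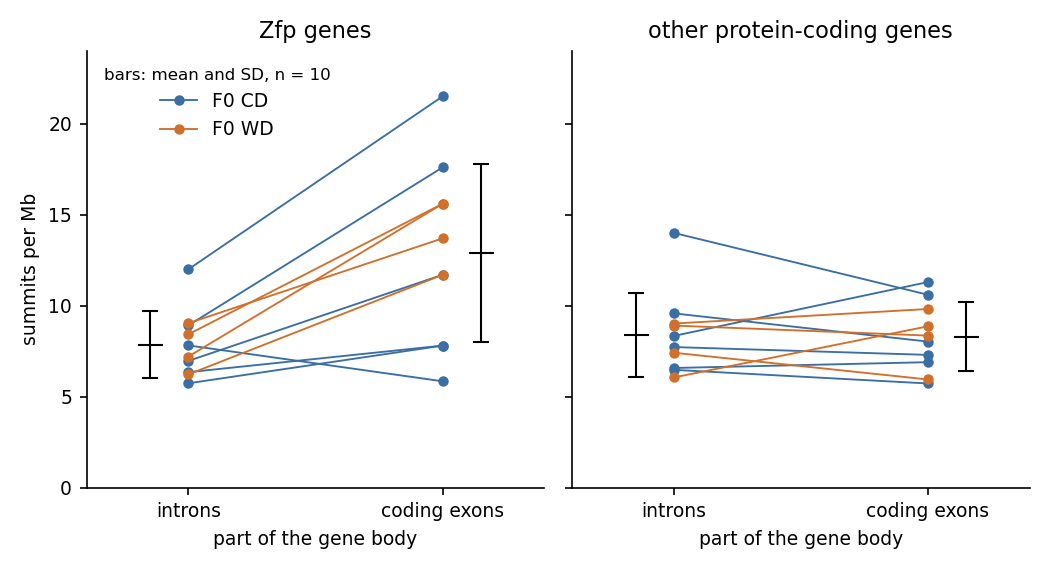
Summits per Mb in introns and in coding exons of gene bodies, for Zfp genes (left) and other protein-coding genes (right). Each line joins the values of 1 library, blue for F0 CD and orange for F0 WD, and bars give the mean and SD over 10 libraries. In Zfp genes 9 of 10 lines rise towards coding exons, and in other genes the means are 8.41 and 8.29.

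Other families gave a scale for these values. Zbtb genes, 39 zinc finger genes with a BTB domain, had a promoter peak in 3.33% ± 2.72 of genes and 7.88 ± 3.27 peaks per Mb of body. The 27 Zscan and Zkscan genes, with a SCAN domain, had 1.11% ± 1.79 and 8.25 ± 4.32. Olfactory receptor genes (Olfr), a clustered family of 1128 genes with other functions, had 1.84% ± 0.688 and 3.11 ± 1.63. These families were described and not tested against Zfp genes.

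**Figure D3:**
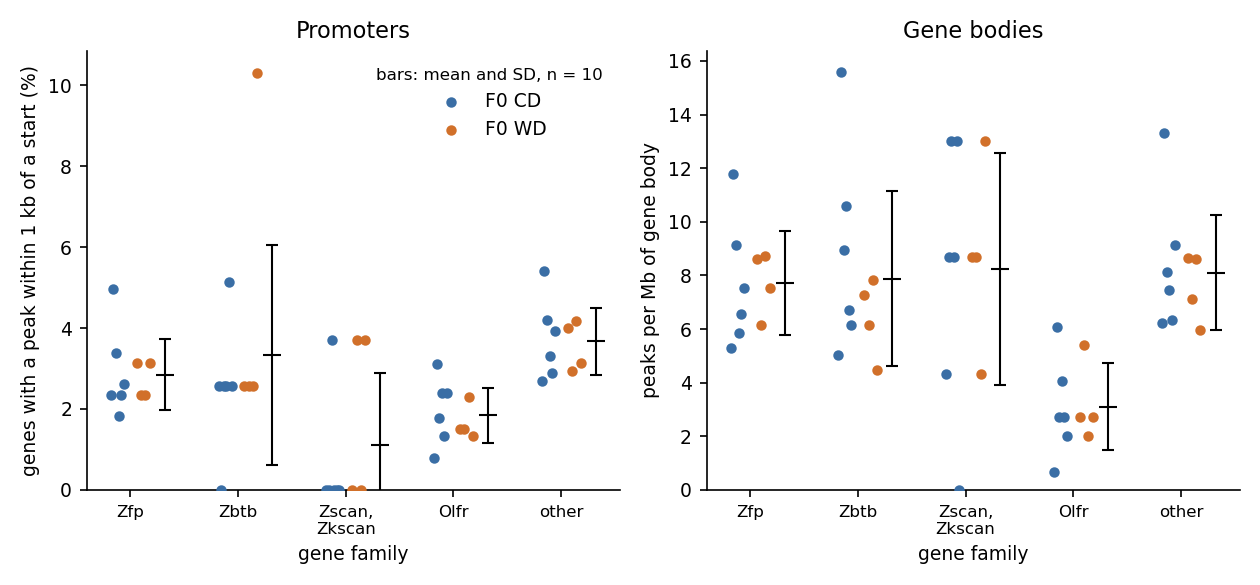
Percent of genes with a peak within 1 kb of a start (left) and peaks per Mb of gene body (right) in each of the 10 libraries, for Zfp genes and 4 other sets of genes. Points are libraries, blue for F0 CD and orange for F0 WD, and bars give the mean and SD over 10 libraries. Zfp genes sit at 1.83% to 4.96% and 5.31 to 11.8 peaks per Mb.

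Clusters were runs of at least 4 Zfp genes with at most 250 kb between neighbours, and 188 of the 383 genes fell in 24 clusters. The regions of clustered genes numbered 233. A promoter peak within 1 kb was found at 2.87% ± 1.42 of clustered and 2.82% ± 0.913 of other Zfp genes, and the exact permutation p was 0.914 (n = 10). Bodies of clustered genes held 7.94 ± 2.60 peaks per Mb and those of the others 7.64 ± 1.90, with a mean log2 ratio of 0.02 ± 0.38 and an exact permutation p of 0.846 (n = 10). That value depended on the settings, in both directions. With at most 100 kb between neighbours, the mean log2 ratio was -0.38 with an exact permutation p of 0.0254 (n = 10), and with 500 kb it was 0.25 with an exact permutation p of 0.0449 (n = 10). Per Mb of unique 50-mers it was 0.29 with an exact permutation p of 0.041 (n = 10). With the chromosome 4 run left out, a choice made after its values were seen, bodies of clustered genes held fewer peaks per Mb than those of the others, with a mean log2 ratio of -0.44 and an exact permutation p of 0.00977 (n = 10).

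The densest cluster values were those of chromosome 4. With gaps of up to 500 kb, 18 Zfp genes from Zfp990 to Zfp933 (chr4:145510759-147848366) formed 1 run. They held 58 regions, 7.79% of all Zfp gene regions on 4.78% of the Zfp gene length with its extension, and 9 of the 32 regions found in 5 or more libraries. The density over the genes with their 3 kb extension was 22.8 ± 8.26 peaks per Mb (SD, n = 10). The whole span held 183 regions, 125 of them outside the Zfp genes, and 28 of the 183 were found in 5 or more libraries. Regions were thus frequent across the span and not at its Zfp genes alone. The number of Zfp peaks in the run was 16, 17, 26, 9, 17 and 16 in the F0 CD libraries and 20, 6, 12 and 20 in the F0 WD libraries, so the diets overlapped. Of each library's Zfp peaks, 7.06% to 21.1% lay in this run. Members of this run belong to the KRAB zinc finger genes known for silencing endogenous retroviruses.

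Within the run, regions were spread over 14 of the 18 genes. None was found at the other 4, Zfp993, Zfp989, Zfp979 and Zfp534. Zfp984 held 11 regions, and the 9 found in 5 or more libraries were 3 at Zfp600 and 1 each at Zfp992, Zfp980, Zfp978 and Zfp984 in gene bodies, and 1 each past the end of Zfp988 and Zfp985. The Zfp988 flank region had 23 to 38 reads in 9 libraries and 94% repeat-masked bases, while the Zfp985 flank region had 13 to 25 reads in 7 libraries and 4.33%. Of the 50-mers over these 18 genes with their extension, 31.8% occur once in the genome. The part of copied sequence in the density of this run was not tested.

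**Figure D4:**
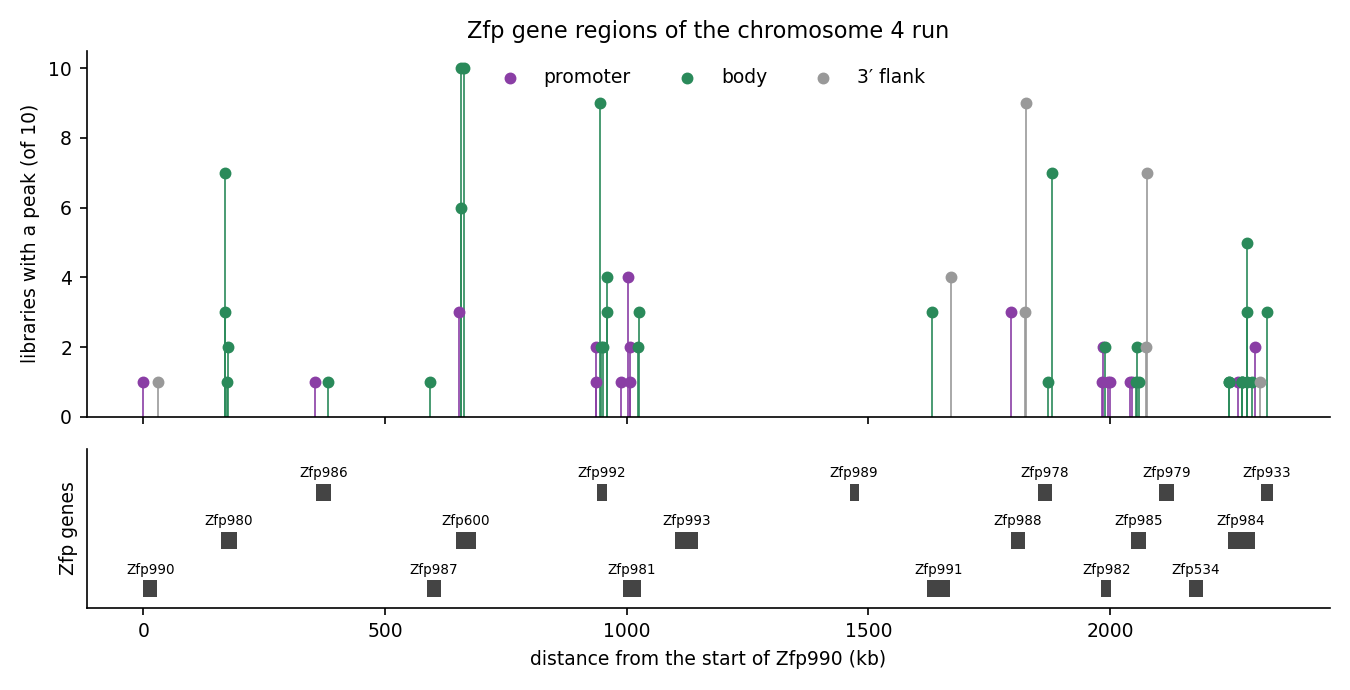
Zfp gene regions of the chromosome 4 run by distance from the start of Zfp990 in kb (horizontal axis) and number of libraries with a peak, of 10 (vertical axis), with the 18 Zfp genes drawn to scale underneath. Purple, green and grey points are promoter, body and 3′ flank regions. The tallest points, at 10 libraries, are the pair of Zfp600 body regions.

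The 6 clusters with most genes lay elsewhere or in part of that run. The largest, with 23 genes on chromosome 13 (chr13:67038596-67827002), held 17 regions at 3.67 ± 3 peaks per Mb, of which 3 were found in 2 or more libraries. The cluster of 18 genes at chr17:21383748-22456689 held 21 regions at 3.98 ± 2.73, and that of 13 genes at chr17:32765496-33631779 held 11 at 3.66 ± 4.28, none of them in 2 or more libraries. On chromosome 7, 15 genes at chr7:29768552-30169750 held 26 regions at 9.41 ± 5.33, and 12 genes at chr7:24081924-24587641 held 16 at 11.3 ± 5.20. These clusters had 81.0% to 95.3% unique 50-mers. The sixth place was shared by 10 genes within the chromosome 4 run, at 18.2 ± 9.10, and 10 genes at chr7:127233061-127885996, at 5.79 ± 5.58. At the other end, the 4 genes at chr2:175372436-175931100 had no region in any library, and 0 of their sampled 50-mers occur once in the genome. Low uniqueness thus stood beside both the highest density and the absence of peaks. Of the 24 genes with under 25% unique 50-mers, 17 had no region, 70.8%, against 34.9% of the 327 genes with 75% or more.

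Copies among the regions themselves were counted by alignment. At an identity of at least 80% over at least 150 bp, 25 of the 745 regions fell in 9 groups. The largest group held 5 regions, at Zfp991, Zfp988, Zfp982, Zfp804b and Zfp677, of which 91.8% of bases were repeat-masked. The promoter regions of Zfp990 and Zfp984, 3 in all, formed a group with 83.7% to 95.5% identity and 0.784% repeat-masked bases.

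The study asked whether the diet changed accessible sites in sperm, and compared read counts peak by peak. Here the share of a library's peaks that lay at Zfp genes was compared, which is a narrower question. Gains and losses among these genes can cancel in a share. Peaks at Zfp genes made up 0.487%, 0.640% and 0.684% of a library's peaks as the lowest, median and highest of F0 CD, and 0.615%, 0.543%, 0.604% and 0.802% in F0 WD. The groups overlapped, with the highest value in F0 WD replicate 4. The means were 0.607% ± 0.0846 (SD, n = 6) and 0.641% ± 0.112 (SD, n = 4), a difference of 0.0334 percentage points with an exact two-sided permutation p of 0.614. The smallest p that 210 splits allow is 0.00476. Promoter regions made up 0.159% ± 0.0252 of the peaks in F0 CD and 0.161% ± 0.0248 in F0 WD, with an exact permutation p of 0.881. Body regions made up 0.396% ± 0.0543 and 0.441% ± 0.0700, with an exact permutation p of 0.295. Regions of clustered genes made up 0.207% ± 0.0499 and 0.206% ± 0.0817, with an exact permutation p of 0.962. The adjusted p over these 4 comparisons was 0.962 for each.

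**Figure D5:**
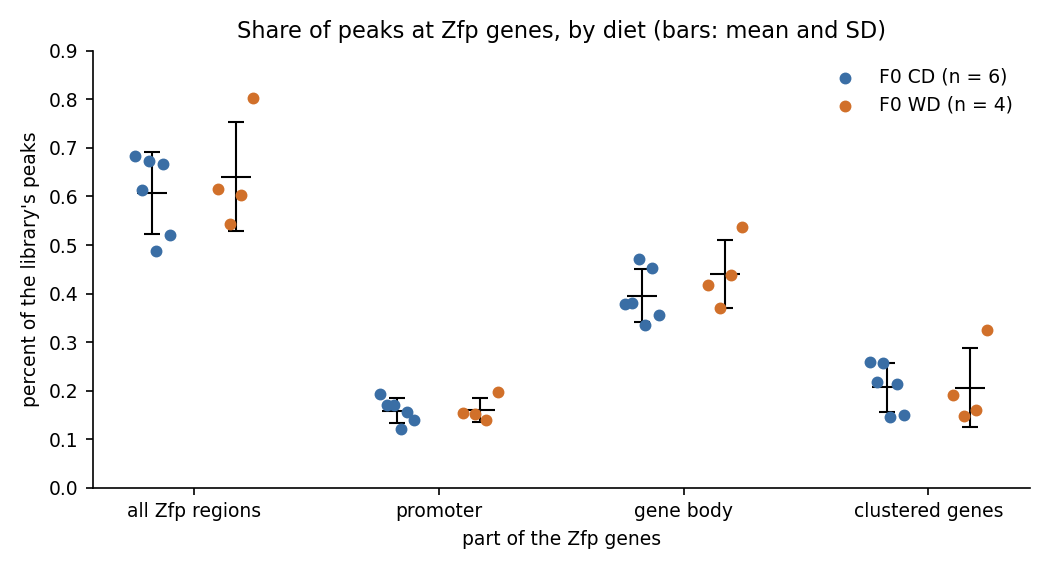
Percent of each library's autosomal peaks that lay at Zfp genes, in their promoters, in their bodies and at clustered genes. Points are libraries, blue for 6 F0 CD and orange for 4 F0 WD, and bars give the mean and SD of each diet. The diets overlap in all 4 sets, with means of 0.607% and 0.641% for all Zfp regions.

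Region by region, no Zfp gene region passed a test of detection between the diets. Regions of at least 2 libraries entered it, 143 of the 745, made up of 34 promoter, 97 body and 12 flank regions. Fisher's exact test at an unadjusted p under 0.05 called 0 of 143 towards F0 WD and 0 towards F0 CD. With 6 and 4 libraries, a region found in 2 libraries cannot give a Fisher p below 0.133, and 73 of the 143 were of this kind. A region found in 3 F0 CD libraries alone gave a Fisher p of 0.2, so regions of 3 libraries could not be called towards F0 CD. The 0 called thus says nothing of such regions. Over all 24550 autosomal regions tested, 0.558% were called towards F0 WD and 0.473% towards F0 CD, and no region passed after Benjamini-Hochberg adjustment. The smallest p that Fisher's exact test can give with 6 and 4 libraries is 0.00476. Over so many tests, that value passes the adjustment only if a great many regions reach it together. The adjusted result thus cannot show that single regions were unchanged. The lowest Fisher p of a Zfp gene region was 0.133, with an adjusted p of 1, and the mid-p version of the test also called 0 in each direction. The share of libraries with a peak was higher in F0 WD at 70 regions, higher in F0 CD at 65 and equal at 8. A peak was found in F0 WD alone at 10 regions and in F0 CD alone at 31, which has more libraries, and over all regions at 1299 and 5387. In simulated data, the test recovered 94% and 89% of regions set to 95% detection in one diet and 5% in the other, and 35% and 36% at 80% and 20%, for changes towards F0 WD and F0 CD.

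The regions with the largest differences in detection did not pass the test. Towards F0 WD, Zfp775 had 16, 13 and 17 reads in 3 libraries against 12 in 1 F0 CD library, with an exact Fisher p of 0.190. Zfp459, 38 bp from its start, Zfp618, Zfp536 and a second Zfp652 region, on a coding exon, were each called in 2 F0 WD libraries and 0 F0 CD libraries, with an exact Fisher p of 0.133. Towards F0 CD, the Zfp652 region in 6 and 2 libraries also had an exact Fisher p of 0.133. Zfp933, Zfp143, Zfp146, a second Zfp980 region and the Zfp988 promoter region were each called in 3 F0 CD libraries and 0 F0 WD libraries, with an exact Fisher p of 0.2. The adjusted p over all regions was 1 for each.

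Lists of Zfp genes by function showed no called region. Over all regions tested, 0.558% were called towards F0 WD and 0.473% towards F0 CD. Lists with 1 to 16 tested regions could therefore hardly hold a call, and their counts of 0 say nothing about these functions. Of 7 genes for imprint and retroelement control, 4 had a region, 7 regions in all, of which 1 was tested and 0 called. Zfp57, which protects imprints, had 1 region in 1 library and Zfp809, which silences retroviruses, had 1 promoter region in 1 F0 WD library. Zfp568, a repressor of a placental Igf2 transcript, had 3 regions, of which 1 in 2 libraries, and Zfp708 had 2. Zfp445, which also protects imprints, Zfp932 and Zfp819 had none. Of 7 genes for pluripotency and germ line, 3 had a region, Zfp143, Zfp541 and Zfp296. Zfp42, a marker of pluripotent cells also called Rex1, Zfp281, Zfp37 and Zfp352 had none.

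All 7 genes of the fat and metabolism list had a region, 85 regions in all, with 16 tested and 0 called. Most were those of the long genes Zfp423, Zfp407 and Zfp516, and Zfp36, which speeds the decay of inflammatory mRNAs, had 1. Of 10 genes for the nervous system and development, 8 had a region, 84 in all, with 7 tested and 0 called. Zfp335 and Zfp503 had none.

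Among 15 partners of KRAB zinc finger proteins, which are not Zfp genes, 10 had a region, with 3 tested and 0 called. Atf7ip, a cofactor of Setdb1, had a region found in all 10 libraries, and Trim28 had 1 region, found in 2 F0 CD and 1 F0 WD libraries. Promoter peaks within 1 kb were found in at most 1 library at any gene of these lists.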

How the data were processed

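As the study's methods and the notes of the submitters give it, reads were trimmed with Trim Galore 0.6.10, aligned to mm10 (GRCm38) with Bowtie2 2.4.5, which was set to report several places for a read that has them, freed of duplicates with Picard 2.24.0 and of low-quality alignments, shifted for the transposase offset and limited to short fragments, and peaks were called per sample with MACS2 2.2.7.1 at a q of 0.05. In the deposited lists, the score is the authors' integer made from the q value. The fold enrichment deposited by the authors is a ratio of the summit to its local background. Each p-value and q-value of the deposited lists stands as −log10. Without read counts in the lists, the count model of the study was not repeated. The fold and the Poisson p together gave the reads at each summit, and 100% of 181398 summits tried gave a whole number within 0.001 of the −log10 p. The weakest summits held 9 to 13 reads, which sets the precision. Animals were replicates, and p-values cover the spread between these libraries.

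The members and lists were chosen with earlier results of these data known. Named were the 12 Zfp genes with a promoter region found in most libraries, the 8 body regions found in most, in each direction the 5 regions with the largest difference in detection, ties going to the higher median percentile, any region with a Fisher p under 0.05, fixed gene lists, the 6 clusters with most genes and 3 other gene families. The coding-exon regions, the sequence groups and further regions of the chromosome 4 run were named after their values were seen. A peak was a distinct interval. Shares were compared by exact permutation over 210 splits, within-library differences by exact sign flips over 1024 patterns, and detection by Fisher's exact test, checked on simulated data with 200 changed among 24550 regions. Unique 50-mers were counted over the whole reference, and aligned copies with BLAST 2.17.0. Scripts ran on Python 3.11.15 with scipy 1.17.1, numpy 2.4.6, pysam 0.24.0, pandas 2.3.3, matplotlib 3.10.9 and Biopython 1.88. Alternatives were the q threshold, equal numbers of peaks, summits counted, windows, cluster gap, merging gap, number of libraries, mid-p, unique length, repeat content, rank by fold, a block by replicate number and the omission of each library in turn. The chromosome 4 run was left out as an alternative chosen after the data were examined.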

Additional observations from a re-analysis of the deposited data

Results flagged for a closer look

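In 2 of 32 groups of libraries examined, 1 library stood far from the others of its diet, which chance gives in about 1 of 20 groups. At the Zfp64 promoter region, F0 CD replicate 6 had 16 reads at the summit, while the other F0 CD libraries had 18 or 19. At the Zfp652 body region found in 8 libraries, F0 CD replicate 5 had 29 reads, while the other F0 CD libraries had 15 to 19. None of the 6 within-library differences between Zfp and other genes, or between clustered and other Zfp genes, passed an exact permutation test between the diets, with the lowest p at 0.105, for clustered against other promoters (n = 6 and 4).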

How the results depend on the processing

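The lower share of Zfp promoters with a peak and the lower repeat content of peaks in Zfp bodies kept their direction and their side of the threshold under all 14 and 13 alternatives, with ranges of -0.918 to -0.714 and -11.9 to -11.3 percentage points when libraries were left out. The promoter difference was -2.04 with a 3 kb window and -0.491 with equal numbers of peaks. The diet differences in shares never passed the threshold, but their signs were not stable. Without F0 WD replicate 4 the difference for all Zfp regions turned to -0.0202, within -0.0202 to 0.0661 over the libraries left out, and that for promoters ran from -0.00945 to 0.00977, turning without F0 CD replicates 4 or 6 or F0 WD replicate 4. For clustered genes it turned to 0.0151 with equal numbers of peaks, 0.00759 with 1 kb windows, 0.000839 with a 500 kb gap and 0.00515 without the chromosome 4 run, and ran from -0.0413 to 0.0182 over the libraries left out, turning without any 1 of replicates 1 to 3 of either diet. The body difference stayed positive, at 0.0132 to 0.0687.

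With the replicate number as a block, the promoter difference was -0.00279 (exact p = 1, n = 4 pairs) and no other direction changed. Since 4 pairs cannot give a p below 0.125, no call was possible under the block. The labels do not say whether the numbers pair the animals. The deviations of same-numbered libraries correlated at -0.0115 to 0.0337, and 3 of the 4 F0 WD libraries correlated best with another number. Correlations of called peaks cannot settle whether the animals were paired.

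Counts of called regions were 0 to 1 when libraries were left out. Without F0 CD replicate 1 the Zfp992 region split and 1 piece was called towards F0 WD (0 against 4 libraries, exact Fisher p = 0.00794). The Zfp775 region was called in the absence of F0 CD replicate 4, or of F0 WD replicate 2, towards F0 WD (exact Fisher p = 0.0476). At q under 0.01 the Zfp652 region was called towards F0 CD (6 against 1 libraries, exact Fisher p = 0.0333).

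The log2 ratio of Zfp to other body densities turned to 0.0668 with the unique length and 0.304 with peaks under 50% repeat-masked, and passed the threshold at -0.227 without the chromosome 4 run. It ran from -0.113 without F0 WD replicate 4 to -0.0362 without F0 CD replicate 4, around -0.0676. The difference between clustered and other Zfp promoters turned to -0.126 with a 500 kb gap, -1.32 with a 3 kb window and -0.0957 without the chromosome 4 run, and ran from -0.253 to 0.277 over the libraries left out, turning without F0 CD replicate 2, 3, 4 or 5. The log2 ratio of clustered to other bodies was -0.0718 at q under 0.01, -0.38 with a 100 kb gap (exact p = 0.0254, n = 10), 0.25 with a 500 kb gap (exact p = 0.0449, n = 10), 0.29 with the unique length (exact p = 0.041, n = 10) and -0.44 without the chromosome 4 run, and ran from -0.0426 to 0.075 over the libraries left out, turning without F0 CD replicate 1 or 3 or F0 WD replicate 4. The difference in percentile at promoters, -1.72, turned to 1.85 when ranked by fold, was -5.37 with equal numbers of peaks, -3.16 at q under 0.01 and -3.13 without the chromosome 4 run, and ran from -2.75 without F0 WD replicate 3 to -0.352 without F0 CD replicate 5, with -0.735 without F0 WD replicate 2. The cause of these changes was not tested. The run was left out after its high values were seen. The weakest called summit held 9 to 13 reads in a library, so a count of libraries misses weaker sites.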

Other observations

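The Zfp992 intron region held 2 groups of summits, a split seen after its values were known. The upstream group (summits at chr4:146455000-146455095) was found in 4 of 6 F0 CD libraries, with 23, 36, 22 and 27 reads, and in 1 of 4 F0 WD libraries, with 37. The downstream group (chr4:146455381-146455689) was found in 1 of 6 F0 CD libraries, with 27 reads, and in all 4 F0 WD libraries, with 18, 18, 28 and 36. The interval of F0 CD replicate 1 joined both groups into the 1 region that was tested.

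Of the 8 Zfp genes on the X chromosome, which were left out by the rule, no peak was found at any in the 10 libraries. Other genes of the X chromosome were not counted, and 143 of the 383 autosomal Zfp genes also had no region. The absence can thus not be read as a trait of X-linked Zfp genes.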
